A study of Homo sapiens with 20 samples.

Results

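The comparison set I3P (indole-3-pyruvic acid) against PP (phenylpyruvic acid), aromatic keto acids that share a pyruvic acid side chain and differ in the ring it carries: an indole ring in I3P and a phenyl ring in PP. The 5 arrays of U-87MG cells given I3P at 40 µM for 24 h were compared with the 5 arrays of cells given PP at the same dose and time, 10 of the 20 arrays in the series, paired by the replicate number of the labels. All 11316 probe sets with a single gene symbol, of 12770 on record, were compared. The other groups were HPP (hydroxyphenylpyruvic acid, a phenyl ring with a hydroxyl group) at the same dose and time and DMSO, the solvent, which all cultures could hold at up to 0.2% of the medium. U-87MG is an established human glioblastoma line, so all groups came from 1 line grown in the same medium, and all 20 arrays measured total RNA. The labels call the 5 samples of each group biological replicates but do not say how the cultures were separated. The p-values measure the spread that remains between samples after differences between replicate numbers are removed, estimated over all 20 arrays unless stated. Where a fit without the replicate number is given, its spread also holds those differences.

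I3P, HPP and PP are the keto acids of tryptophan, tyrosine and phenylalanine, which the enzyme IL4I1 and some aminotransferases form by removing the amino group. The aryl hydrocarbon receptor (AHR) is a transcription factor held in the cytoplasm by chaperones until a small planar molecule binds it. It then pairs with ARNT in the nucleus and binds DNA elements with a GCGTG core near genes such as those of the cytochrome P450 enzymes CYP1A1 and CYP1B1 and its own repressor AHRR. Indole compounds derived from tryptophan are known AHR ligands. The question was how far the cells' expression depends on the ring when dose, time and side chain are held the same.

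Values are log2 levels from the robust multi-array average method (RMA), in which a difference of 1 is a doubling. The median of an array lay between 9.23 and 9.279, and no pair of arrays held identical values. Arrays of the same number deviated together from their group means, with correlations of 0.298 to 0.655 over probe sets for the 5 same-number pairs of I3P and PP. The replicate number was a block in the limma fit, which compares I3P with PP within each number and leaves the difference itself unchanged. Replicate 3 stood apart from the other numbers under both compounds for several genes, THBS1 and MEST among them, and the values are given with each gene. Of 10 markers of the U-87MG and glioma lineage, 0 were called different, at mean levels of 8.31 to 13.35, and the 4 measured blood and microglial markers lay at 8.04 to 9.01 and the 5 epithelial, neuronal and oligodendrocyte markers at 8.53 to 10.04, with 0 called in either. The arrays measured whole cultures, so more RNA per cell and more cells that express a gene cannot be told apart.

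I3P and PP differed in 102 probe sets of 102 genes at an adjusted p under 0.05, 0.901% of those tested. Of these, 76 were higher with I3P (0.672%) and 26 lower (0.23%). The higher genes held AHR target genes such as TIPARP and CYP1B1, the transporter SLC16A6, the matrix protein thrombospondin (THBS1), proteases and their inhibitors, cytokines and binding proteins of the insulin-like growth factors. The lower genes held RGS4, a brake on G protein signalling, the transcription factor TBR1, the inhibitor of DNA binding ID3 and MYC. Differences were mostly small: the median log2 difference was 0.40 among the higher genes (0.24 to 1.52) and -0.37 among the lower ones (-0.80 to -0.24), and 5 genes passed 2-fold, SLC16A6, THBS1, SERPINB2, TIPARP and SECTM1, all higher with I3P. The median over all probe sets was 0.004.

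Every one of the 76 higher genes was above PP in all 5 pairs, and 25 of the 26 lower genes were below it in all 5, EIF1AX being the exception. That evenness follows in part from calling the genes on these same pairs. Over all probe sets 6.48% were above in all 5 pairs and 5.67% below. The arrays of the compounds did not overlap for 32 of the 76 higher and 9 of the 26 lower genes, against 0.716% of all probe sets with every I3P array above every PP array and 0.433% with every one below. Without the block 9 genes were called higher (0.0795%) and 1 lower (0.00884%), all 10 among the 102: TIPARP, SECTM1, PRDM1, CYP1B1, STC2, ALDH1A3, LACC1, HK2 and SNX9 higher, and TBR1 lower. A fit to the 10 arrays of I3P and PP alone, with the block, called 20 higher and 3 lower. Leaving out I3P replicate 2 gave 66 calls, I3P replicate 5 gave 53 and PP replicate 3 gave 65, and the total stayed within 1.5 times of 102 without any other single array. Without all arrays of 1 number, from 1 to 5, there were 59, 38, 53, 35 and 50 calls. With p-values adjusted over all 3 pairs of compounds together, 48 genes were higher and 16 lower.

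**Figure D1:**
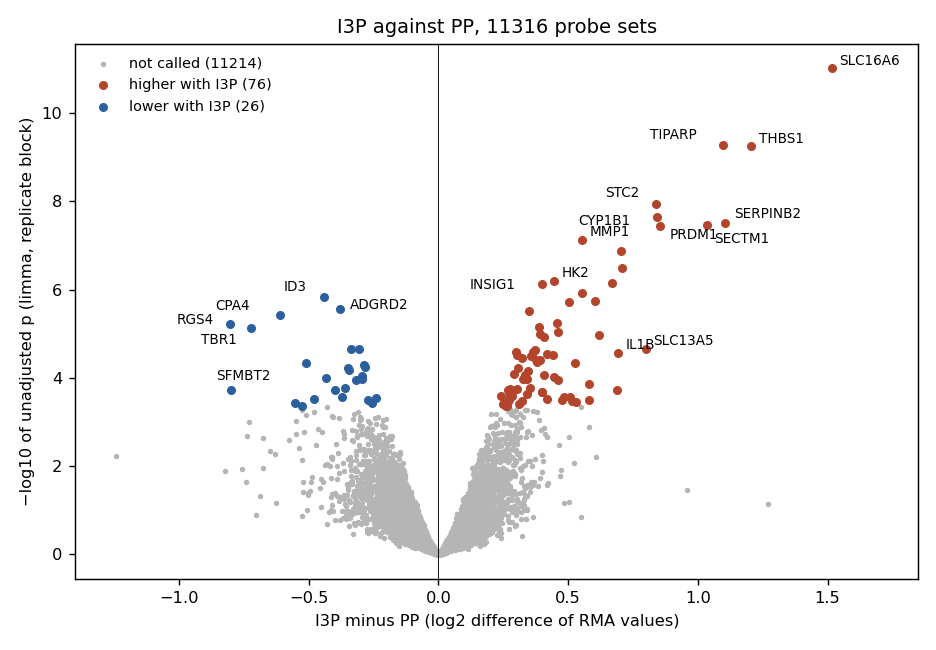
Each point is a probe set, with the log2 difference I3P minus PP on the x axis and −log10 of the unadjusted p of limma with the replicate block on the y axis. The 76 genes called higher with I3P reach a difference of 1.52 and the 26 called lower reach -0.80.

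The lists were chosen with earlier results of these data known, and their counts stand beside 0.904% of all genes called. The AHR target list had 6 of 12 measured members higher with I3P and 0 lower (50%), with a median log2 difference of 0.371 against 0.004 for all genes. Of the list, 3 members kept the call without the block: TIPARP, CYP1B1 and STC2. CYP1A1 and UGT1A6 were not analysed here. The list also shares members with others below: SERPINB2, STC2, EREG, CYP1B1, NQO1 and SLC7A5.

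TIPARP encodes an ADP-ribosyltransferase that acts as a feedback brake on AHR. In replicates 1 to 5 it was at 11.08, 11.04, 11.26, 11.28 and 10.64 with I3P and at 10.04, 9.85, 10.34, 10.03 and 9.57 with PP. Every I3P array was above every PP array, by 2.14-fold on average (log2 1.09, SE 0.0852, adjusted p = 2.16e-06, and 0.0114 without the block). Against DMSO, at 10.03 ± 0.17 (SD, n = 5), TIPARP differed by 1.03 with I3P and by -0.07 with PP (95% interval -0.25 to 0.11).

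CYP1B1 encodes a cytochrome P450 that oxidises steroids, retinoids and aromatic hydrocarbons. Its I3P arrays read 11.4, 11.48, 11.44, 11.31 and 11.39 and its PP arrays 10.58, 10.3, 10.93, 10.61 and 10.39. The I3P arrays lay close together (SD 0.06) and all above the more spread PP arrays (SD 0.24), a 1.79-fold difference (SE 0.085 in log2, adjusted p = 5.13e-05, and 0.013 without the block). STC2, stanniocalcin 2, is a secreted glycoprotein that blocks a protease of the insulin-like growth factor system. It read 11.17, 11.35, 10.54, 11.21 and 11.33 with I3P and 10.4, 10.48, 9.97, 10.25 and 10.32 with PP. Replicate 3 was the lowest in both groups, yet its I3P array still exceeded every PP array (log2 difference 0.84, SE 0.0805, adjusted p = 3.3e-05, and 0.0188 without the block).

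SERPINB2, plasminogen activator inhibitor 2, showed one of the larger differences, 2.15-fold. Levels were 11.56, 11.22, 10.69, 11.48 and 10.3 with I3P and 10.75, 10.03, 9.93, 10.2 and 8.8 with PP. The groups overlapped, because PP replicate 1 was above I3P replicates 3 and 5, while the pair differences ran from 0.76 to 1.5 (SE 0.114, adjusted p = 5.13e-05, and 0.706 without the block). AHRR, the repressor that competes with AHR for ARNT, was at 9.31, 9.27, 9.55, 9.24 and 9.22 with I3P and at 8.66, 8.35, 9.35, 8.61 and 8.59 with PP. Its PP replicate 3 overlapped the I3P arrays, and pair 3 gave the smallest difference, 0.19, against 0.63 to 0.92 in the others (log2 difference 0.60, adjusted p = 0.0012, and 0.305 without the block). EREG, epiregulin, a ligand of the EGF receptor, was higher by 0.45 (adjusted p = 0.0187, and 0.756 without the block), with replicate 5 lowest under both compounds, and was called in 14 of the 20 fits that left out 1 array.

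The other 6 members did not pass. ABCG2, a drug efflux pump, differed by 0.24 (adjusted p = 0.322), ALDH3A1, an aldehyde dehydrogenase, by 0.30 (0.509), the antioxidant regulator NFE2L2 by 0.19 (0.222) and the quinone reductase NQO1 by 0.11 (0.545). CYP1A2 differed by -0.05 and the amino acid transporter SLC7A5 by -0.01, and both signs turned under other settings. Of 10 measured genes of the AHR complex 0 were called (median 0.016). AHR itself read 11.33 ± 0.14 with I3P and 11.41 ± 0.14 with PP (log2 difference -0.08, 95% interval -0.18 to 0.02), and ARNT differed by -0.05. ARNT2, a relative of ARNT, was above PP on every I3P array but was not called (0.29, adjusted p = 0.086).

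Promoter sequences were read for the AHR target list because the core of the AHR element, GCGTG, can be looked up in them on both strands. The RefSeq table of GRCh38.p14 gives 250 bases before and 50 after each gene's start, and its promoters matched 10 of the 12 measured list members. CYP1B1 was not among those matched. The 250 bases before the start are given here for 4 called members chosen to span 0 to 3 matches, on the gene's own strand, with each match in capitals.
TIPARP, chr3:156674340-156674589, plus strand: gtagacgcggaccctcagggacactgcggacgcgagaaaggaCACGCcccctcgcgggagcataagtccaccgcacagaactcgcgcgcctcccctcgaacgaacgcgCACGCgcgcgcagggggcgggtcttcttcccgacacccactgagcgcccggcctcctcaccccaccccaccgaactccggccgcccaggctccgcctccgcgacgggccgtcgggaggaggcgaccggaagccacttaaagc
STC2, chr5:173328415-173328664, minus strand: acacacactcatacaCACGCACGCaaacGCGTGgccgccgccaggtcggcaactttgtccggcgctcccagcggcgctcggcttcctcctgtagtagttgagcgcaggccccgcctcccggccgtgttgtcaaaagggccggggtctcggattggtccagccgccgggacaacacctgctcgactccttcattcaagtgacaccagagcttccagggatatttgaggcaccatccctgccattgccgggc
AHRR, chr5:321464-321713, plus strand: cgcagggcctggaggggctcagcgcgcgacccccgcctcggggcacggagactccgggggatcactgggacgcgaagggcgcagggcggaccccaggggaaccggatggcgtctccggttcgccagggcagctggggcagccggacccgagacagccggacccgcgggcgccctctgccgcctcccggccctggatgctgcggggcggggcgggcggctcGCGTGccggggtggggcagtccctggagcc
SERPINB2, chr18:63887455-63887704, plus strand: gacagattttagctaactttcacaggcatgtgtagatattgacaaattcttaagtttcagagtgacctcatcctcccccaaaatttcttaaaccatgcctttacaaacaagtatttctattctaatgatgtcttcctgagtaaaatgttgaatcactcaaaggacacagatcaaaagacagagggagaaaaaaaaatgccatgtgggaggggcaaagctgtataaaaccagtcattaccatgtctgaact
The TIPARP stretch holds 2 matches, STC2 holds 3, of which the first and second share a base, AHRR holds 1 and SERPINB2 holds 0. In the full 300 bases, 7 of the 10 list promoters (70%) held the motif on either strand, as did 26 of 61 promoters of the genes higher with I3P (42.6%) and 9 of 25 of those lower (36%). List members with the motif included called ones (TIPARP, STC2, AHRR and EREG) and uncalled ones (NFE2L2, NQO1 and SLC7A5). The called SERPINB2 and the uncalled ABCG2 and CYP1A2 lacked the motif. Among tested genes 50.8% of 9193 promoters held it, and 36.3% of all 27305 in the table. A match is a run of letters, not a bound site, and elements farther away were not examined.

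Of 16 carboxylate and amino acid transporters 2 were higher with I3P and 0 lower (12.5%, median log2 difference 0.055). SLC16A6, one of the monocarboxylate transporters, had the largest difference of all called genes, 2.86-fold. Its levels were 11.52, 11.52, 9.96, 11.74 and 10.63 with I3P and 10.25, 10.14, 8.19, 10.32 and 8.88 with PP. Replicates 3 and 5 were low under both compounds, so the groups overlapped, while the pair differences stayed between 1.27 and 1.77 (log2 1.52, SE 0.091, adjusted p = 1.1e-07). Without the block the SE was 0.458 and the adjusted p 0.508. SLC13A5, the sodium-coupled citrate transporter of the plasma membrane, read 9.33, 9.5, 8.64, 9.21 and 9.49 with I3P and 8.05, 8.89, 8.07, 8.44 and 8.72 with PP. I3P replicate 3 fell within the PP arrays, and the pairs differed by 0.57 to 1.28 (log2 0.80, SE 0.137, adjusted p = 0.00798, and 0.296 without the block). SLC35F4, of another solute carrier family, did not overlap between the compounds and differed by 0.69 (SE 0.144, adjusted p = 0.0298, and 0.526 without the block). SLC35F4 was called in 14 of the 20 fits with 1 array left out.

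**Figure D2:**
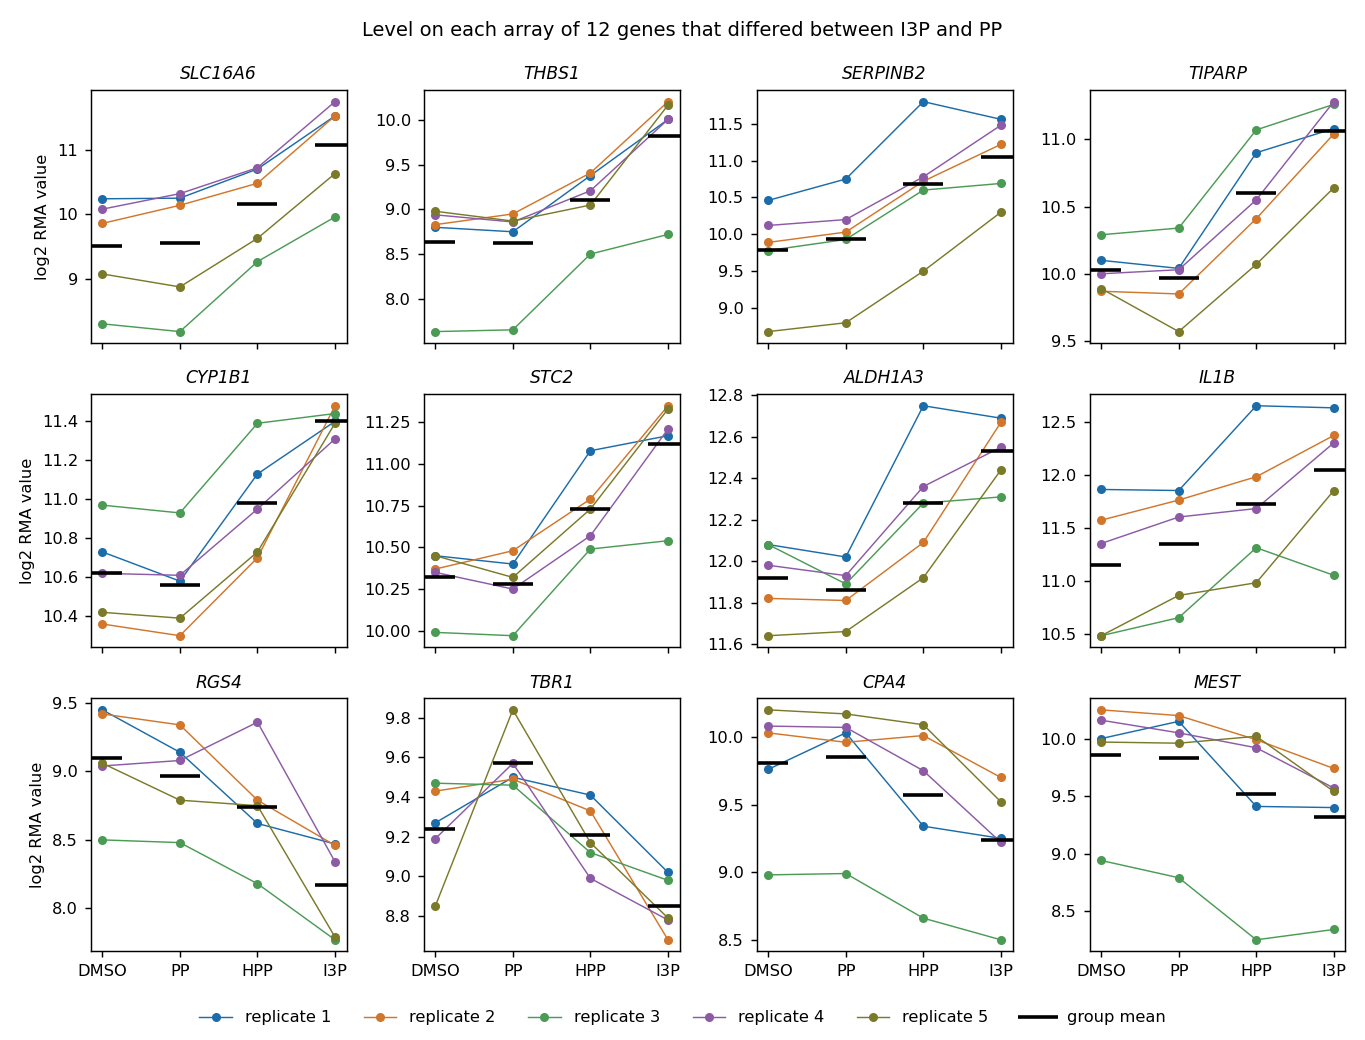
Each panel shows the log2 RMA value of 1 gene on all 20 arrays by group (DMSO, PP, HPP, I3P), with lines joining arrays of the same replicate number and black bars at the group means. For SLC16A6 and THBS1 the replicate 3 line lies below the others in all groups, and the step from PP to I3P keeps its direction in every replicate of each panel.

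Genes of the extracellular space were among the higher ones. THBS1, the matrix glycoprotein thrombospondin 1, which releases TGF-beta from its latent form, read 10.01, 10.21, 8.72, 10.01 and 10.17 with I3P and 8.75, 8.95, 7.65, 8.86 and 8.87 with PP. Replicate 3 was far below the rest under both compounds, and the 5 pairs agreed closely, at 1.07 to 1.3 (2.31-fold, log2 1.21, SE 0.0944, adjusted p = 2.16e-06, and 0.271 without the block). LOXL3, a lysyl oxidase that helps cross-link collagen, did not overlap and was higher by 0.44 (adjusted p = 0.00896, and 0.128 without the block). The other 20 of the 22 measured matrix and TGF-beta genes were not called, and the list's median was 0.003. LOXL3 was not called without all arrays of number 3.

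Pericellular proteolysis had 5 of 16 members higher and 0 lower (31.2%, beside 0.904% of all genes, median 0.053). These were, besides SERPINB2, the plasminogen activators PLAU and PLAT, which SERPINB2 inhibits, and the matrix metalloproteinases MMP1 and MMP14. MMP1, interstitial collagenase, read 11.05, 10.69, 9.41, 11.16 and 10.06 with I3P and 10.65, 10.2, 8.97, 10.44 and 9.34 with PP. The spread between numbers was wider than the difference within them (log2 0.55, SE 0.0606, adjusted p = 9.47e-05, and 0.999 without the block). MMP14, a membrane-bound metalloproteinase, was higher by 0.30 (adjusted p = 0.00891) and PLAU, urokinase, by 0.27 (adjusted p = 0.0487). PLAT, tissue plasminogen activator, was higher by 0.34 (adjusted p = 0.0335), with PP 0.21 below DMSO (95% interval -0.36 to -0.06) and I3P 0.13 above it. None of these 5 kept the call without the block. Of the 5, 3 were called when I3P replicate 1 or 3 or PP replicate 1, 3 or 4 was left out, PLAU being called in 3 of the 20 fits with 1 array left out and PLAT in 13. Without all arrays of number 1, 2 or 4 there were 2, and without number 3 there were 3. PLAUR, the urokinase receptor, and TIMP2, a metalloproteinase inhibitor, differed by 0.01 and 0.00.

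Of 11 measured NF-kB and cytokine genes 3 were higher and 0 lower (27.3%, median 0.161). IL1B, the cytokine interleukin 1 beta, read 12.63, 12.37, 11.05, 12.3 and 11.85 with I3P and 11.85, 11.76, 10.65, 11.6 and 10.86 with PP. The groups overlapped and all 5 pairs were higher with I3P, by 0.39 to 0.99 (log2 0.69, SE 0.121, adjusted p = 0.00843, and 0.986 without the block). LIF, leukaemia inhibitory factor, of the interleukin 6 family, differed by 0.50 (adjusted p = 0.0012) and PTGS2, cyclooxygenase 2, by 0.48 (adjusted p = 0.0407). Both had an adjusted p of 0.999 without the block, and PTGS2 was called in 6 of the 20 fits with 1 array left out. Without all arrays of number 2 or of number 4, 1 of the 3 was called.

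The insulin-like growth factor axis had 4 of 12 members higher and 0 lower (33.3%, median 0.136), all of them secreted proteins that bind the growth factors or control that binding. IGFBP1 read 10.1, 10.27, 8.39, 9.8 and 10.37 with I3P and 9.25, 9.43, 8.04, 9.09 and 9.61 with PP. Replicate 3 was low under both compounds, and the difference was 0.70 (SE 0.0802, adjusted p = 0.000149, and 0.986 without the block). IGFBP4 did not overlap between the compounds and was higher by 0.46 (adjusted p = 0.0196, and 0.125 without the block), and IGFBP3 was higher by 0.39 (adjusted p = 0.0105, and 0.999 without the block). The 4th member was STC2, described among the AHR targets. IGFBP4 was called in 15 of the 20 fits with 1 array left out, and 2 of the 4 members were called without all arrays of number 1 or of number 2.

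Of 12 genes of retinoid metabolism 2 were higher, ALDH1A3 and CYP1B1, and 0 lower (16.7%, median 0.11), and both calls held without the block. ALDH1A3, which oxidises retinaldehyde to retinoic acid, read 12.69, 12.67, 12.31, 12.55 and 12.44 with I3P and 12.02, 11.81, 11.89, 11.93 and 11.66 with PP. The lowest I3P array was above the highest PP array (1.59-fold, SE 0.0867 in log2, adjusted p = 0.000602, and 0.0445 without the block). HK2, hexokinase 2, the first enzyme of glycolysis, likewise did not overlap and was higher by 0.45 (SE 0.0573, adjusted p = 0.000592, and 0.029 without the block), as the single called member of 23 measured hypoxia and glycolysis genes. INSIG1, which retains the cholesterol sensor complex in the endoplasmic reticulum, was higher by 0.40 (adjusted p = 0.000602, and 0.971 without the block), as the single called member of 16 measured cholesterol genes.

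Among higher genes outside these lists, SECTM1, a secreted and transmembrane protein that binds CD7, read 10.24, 10.13, 10.48, 10.04 and 9.73 with I3P and 9.3, 9.02, 9.27, 9.21 and 8.66 with PP. The groups were apart by 2.05-fold (log2 1.03, SE 0.107, adjusted p = 5.13e-05, and 0.013 without the block). PRDM1, the transcriptional repressor BLIMP-1, also did not overlap and was higher by 0.86 (SE 0.089, adjusted p = 5.13e-05, and 0.0114 without the block). ST8SIA5, a sialyltransferase of ganglioside synthesis, was higher by 0.71 (adjusted p = 0.000329, and 0.986 without the block), and TBC1D8, with a domain that acts on Rab GTPases, by 0.62 (adjusted p = 0.00438, and 0.289 without the block).

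RGS4, which speeds the shutdown of G protein alpha subunits, was among the genes farthest below PP. Its levels were 8.47, 8.46, 7.77, 8.34 and 7.79 with I3P and 9.14, 9.34, 8.48, 9.08 and 8.79 with PP. All I3P arrays were below all PP arrays, though the closest, 8.47 and 8.48, nearly touched (PP over I3P 1.74-fold, log2 -0.80, SE 0.123, adjusted p = 0.00298, and 0.354 without the block). SFMBT2, a Polycomb group protein, differed by the same -0.80 with a wider error (SE 0.168, adjusted p = 0.0298, and 0.125 without the block), its pairs running from -1.45 to -0.41. SFMBT2 was called in 13 of the 20 fits with 1 array left out. TBR1, a T-box transcription factor best known in cortical neurons, read 9.02, 8.68, 8.98, 8.78 and 8.79 with I3P and 9.5, 9.49, 9.46, 9.57 and 9.84 with PP. The groups were well apart (log2 -0.72, SE 0.112, adjusted p = 0.00329), and TBR1 was the single lower gene called without the block (0.0114).

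CPA4, a carboxypeptidase, read 9.25, 9.7, 8.5, 9.22 and 9.52 with I3P and 10.03, 9.96, 8.99, 10.07 and 10.17 with PP. Replicate 3 was low under both compounds, and the difference was -0.61 (SE 0.0898, adjusted p = 0.00204, and 0.976 without the block). MEST, an imprinted gene expressed in mesoderm, showed the same low replicate 3 and differed by -0.51 (adjusted p = 0.0114, and 0.999 without the block). ID3, which blocks DNA binding by helix-loop-helix factors, was lower in all 5 pairs (log2 -0.44, SE 0.0604, adjusted p = 0.00103, and 0.724 without the block). MYC, a growth-promoting transcription factor, differed by -0.29 (SE 0.053, adjusted p = 0.0125, and 0.962 without the block) and, with EREG in the other direction, was 1 of 2 called among 21 measured genes of EGF receptor ligands and the ERK response. Neither was called without I3P replicate 5, nor without all arrays of number 2, 3, 4 or 5, and 1 was called without I3P replicate 2 or 4 or PP replicate 1, 4 or 5.

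Lower genes with smaller differences included PRKAG2, a regulatory subunit of the energy sensor AMPK (-0.35, adjusted p = 0.0135, and 0.0918 without the block), and VTA1, of the machinery that sorts membrane proteins into multivesicular bodies (-0.35, adjusted p = 0.0144, and 0.125 without the block). The arrays of both genes did not overlap between the compounds. The same held for MTFR2, a regulator of mitochondrial fission (-0.37, adjusted p = 0.0366, and 0.428 without the block), and the corepressor BCOR (-0.36, adjusted p = 0.029, and 0.448 without the block). The synaptic vesicle protein SYP (-0.40), the glutamate receptor subunit GRIA1 (-0.43), the adhesion receptor ADGRD2 (-0.38), the calcium-binding protein CASQ1 (-0.48) and the noncoding host gene MIR503HG (-0.55) overlapped, with adjusted p-values of 0.00161 to 0.0436 and of 0.551 to 0.965 without the block. With 1 array left out, ADGRD2 was called in all 20 fits, VTA1 in 18, PRKAG2 in 17 and GRIA1 in 15. BCOR and SYP were called in 12, CASQ1 and MTFR2 in 9 and MIR503HG in 6. SYP lay at 8.39 with I3P and 8.78 with PP, and GRIA1 at 8.2 and 8.63. Those levels were within the 8.04 to 9.01 of the blood and microglial markers. Among others, both means of RGS4, ST8SIA5, TBC1D8 and LACC1 lay in that range too. So did the PP means of THBS1 (8.62), AHRR (8.71), SLC13A5 (8.43) and IGFBP4 (8.65), while SFMBT2 with I3P (7.63) lay below it. Expression above background was not tested for any gene.

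The remaining lists held few or no called genes, beside 0.904% of all genes. ATF4 and amino acid response genes had 1 of 18 called, STC2, with a median of 0.023. None was called among 17 NRF2 targets (median -0.013, TXN with the smallest p at -0.18 and adjusted p = 0.23), 14 endoplasmic reticulum chaperones (0.06), 15 p53 targets (-0.018), 15 interferon response genes (-0.013) and 15 enzymes of keto acids and aromatic amino acids (-0.008, AADAT with the smallest p at -0.21 and adjusted p = 0.128). Cell cycle genes had 0 of 30 called, with 25 below 0 and a median of -0.059. The respiratory chain had 0 of 17 called, with 15 below 0 and a median of -0.055. Of all 11282 genes 5468 were below 0, and the direction counts of these lists were not tested. CCNB2, a mitotic cyclin, had the smallest p among the cell cycle genes, at -0.22 and adjusted p = 0.253. The median 95% interval over all probe sets reached 0.167 to either side, and the smallest difference called was 0.24, so smaller ones were mostly not detectable with 5 arrays per group.

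**Figure D3:**
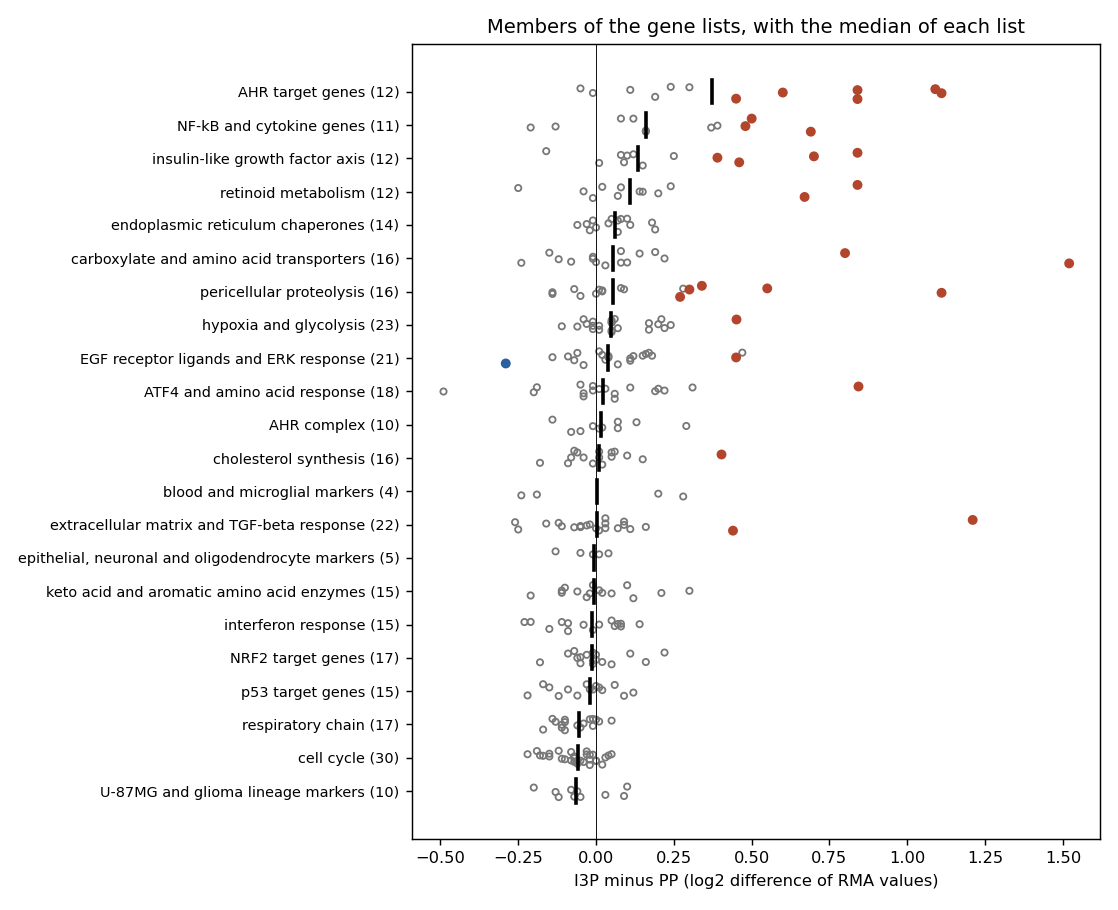
Each circle is a measured gene of a list, with its log2 difference I3P minus PP on the x axis. Filled circles were called (red higher, blue lower with I3P), black bars mark the list medians, and the number measured follows each name. The AHR targets have the highest median, 0.371, with 6 of 12 filled.

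Each compound was also set beside DMSO, with which both comparisons share the same 5 arrays, so the values are given side by side and not tested against each other. I3P against DMSO called 55 genes higher (0.486%) and 13 lower (0.115%). PP against DMSO called 0 genes with limma with the block and 0 without it, and 481 (4.25%) had an unadjusted p under 0.05 with the block and 175 (1.55%) without it. For all of the 15 largest higher genes the I3P interval against DMSO excluded 0 and the PP interval held it, with PP between -0.18 and 0.20 of DMSO and I3P between 0.61 and 1.56. SLC16A6, for instance, was 1.56 above DMSO with I3P and 0.04 with PP (95% interval -0.15 to 0.24).

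Over all 76 higher genes, the PP interval excluded 0 for 12, PLAT among them, with PP below DMSO for 10 and above it for 2, and the I3P interval held 0 for 10.

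Among the 15 largest lower genes the I3P interval held 0 for 4, and the PP interval lay above DMSO and excluded 0 for 7 of them: MIR503HG (0.44), TBR1 (0.33), CASQ1 (0.29), BCOR (0.25), SYP (0.24), GRIA1 (0.23) and ADGRD2 (0.18), although none of these passed adjustment over all genes. For MIR503HG I3P was 0.11 below DMSO, and for TBR1 it was 0.39 below. RGS4, by contrast, was 0.93 below DMSO with I3P (adjusted p = 0.000668) and 0.13 below it with PP, and CPA4, MEST, ID3 and PRKAG2 were each called lower with I3P against DMSO while PP lay within 0.04 of it. Over all 102 genes, I3P was above DMSO for 76 of the 76 higher genes and below it for 26 of the 26 lower ones, and 44 and 7 of these were called for I3P against DMSO. The I3P and PP means behind these counts also chose the genes, so the counts follow in part from that choice. The same holds for the I3P and PP intervals that excluded 0. Over all probe sets, 4.25% had an unadjusted p under 0.05 for PP against DMSO and 11% for I3P against DMSO (limma with the block).

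**Figure D4:**
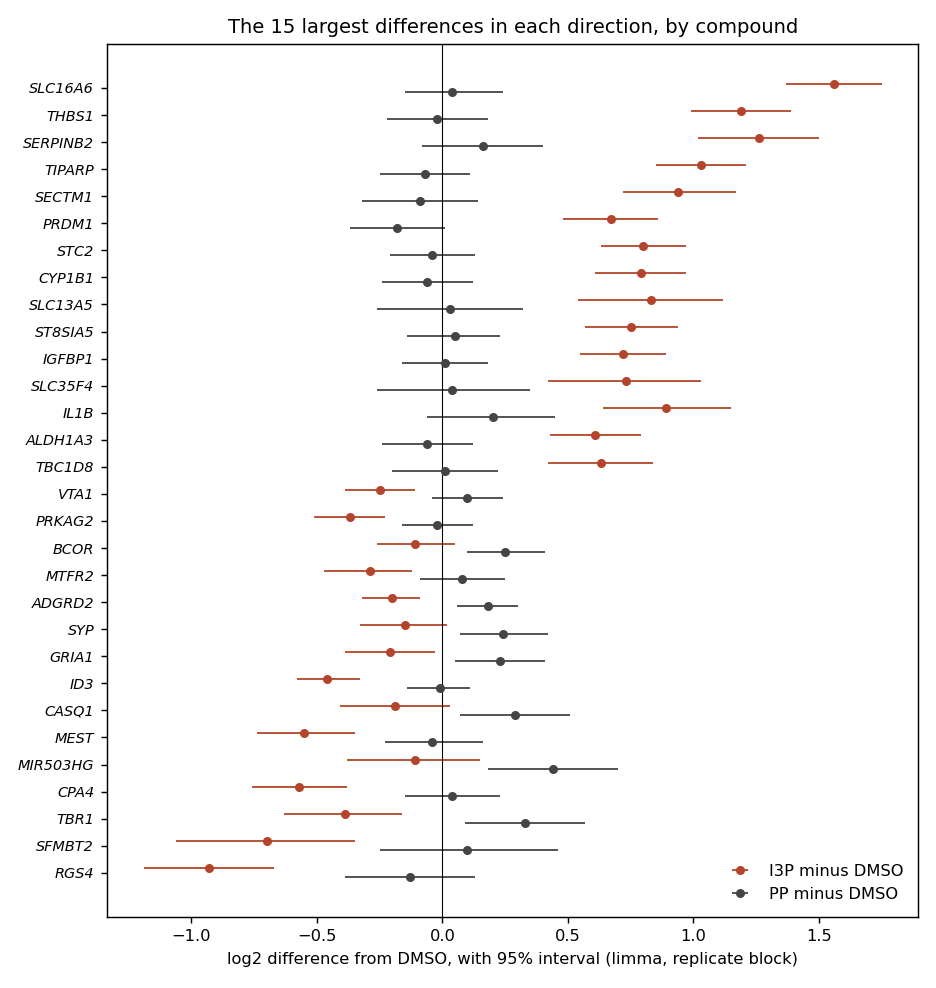
The log2 difference from DMSO is shown for I3P (red) and PP (dark grey) with its 95% interval, for the 15 largest higher and 15 largest lower genes. The PP points of the higher genes lie between -0.18 and 0.20, and those of 7 lower genes lie above 0 with intervals that exclude it.

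HPP, whose phenyl ring carries a hydroxyl group, gave a further phenyl compound at the same dose and time. Its mean lay between those of PP and I3P for 75 of the 76 higher genes (98.7%) and 23 of the 26 lower ones (88.5%), against 40.6% of all probe sets. For probe sets that were not called the share was also high, at 85% of 214 above 0.25 and 78.2% of 307 below -0.25. All these shares use the PP and I3P means that also chose the genes. With PP at 0% and I3P at 100%, HPP stood at a median of 42% for the higher genes (quartiles 34.1 and 57) and 29.8% for the lower ones (18.7 and 50.2). Over all probe sets the median was 40.1% (quartiles -27.8 and 106). For the uncalled probe sets above 0.25 and below -0.25 it was 43% and 40.9%. The median of the higher genes was therefore near that of probe sets in general.

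HPP was called above PP, whose structure differs by the hydroxyl group alone, for 3 genes, 0.0265% of those tested: TIPARP by 0.63 (adjusted p = 0.0131), SLC16A6 by 0.61 (0.0257) and SERPINB2 by 0.74 (0.0257). I3P was called above HPP for 10 genes (0.0884%) and below it for 3 (0.0265%). SLC16A6 was higher with I3P than with HPP by 0.91 (adjusted p = 0.000233), THBS1 by 0.71 (0.00546), SECTM1 by 0.66 (0.0203) and TIPARP by 0.46 (0.0481). For SERPINB2 that difference was 0.37 and did not pass (adjusted p = 0.283, 95% interval 0.13 to 0.61), which does not show that I3P and HPP act alike. Without the block neither of these comparisons called a gene, with 184 probe sets (1.63%) at an unadjusted p under 0.05 for HPP against PP and 386 (3.41%) for I3P against HPP. IGFBP3 stood at the PP level with HPP (difference 0.00) and MIR503HG at the I3P level (0.03 between them).

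**Figure D5:**
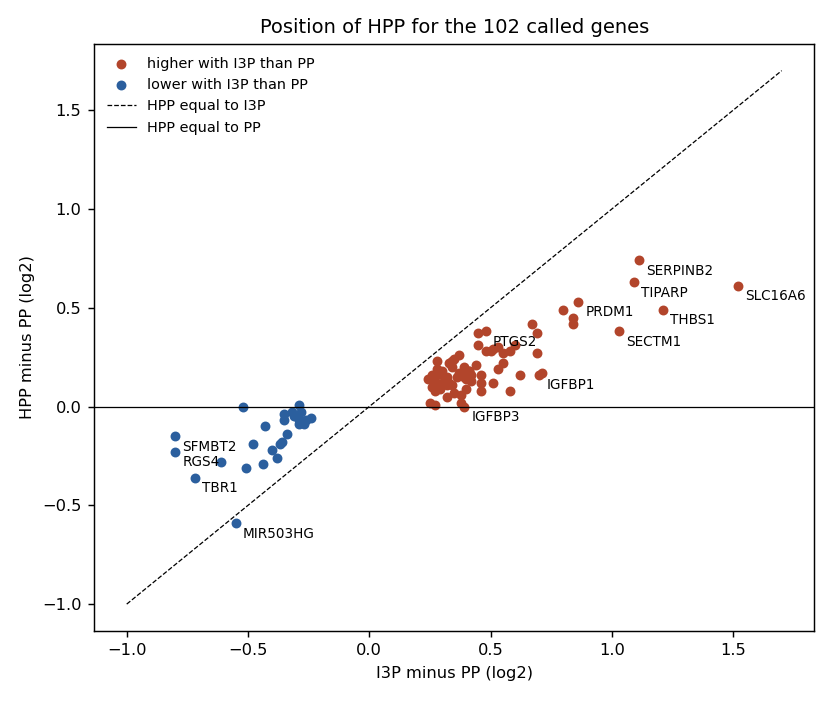
For the 102 called genes the log2 difference HPP minus PP (y axis) is plotted against I3P minus PP (x axis). Points on the solid horizontal line have HPP equal to PP and points on the dashed diagonal have HPP equal to I3P. Of the 76 higher genes 75 lie between the lines.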

How the data were processed

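Total RNA of U-87MG cells was hybridised to 20 Affymetrix arrays in 4 groups of 5. The authors deposited log2 expression values per probe set, made with oligo and RMA per the submitters' processing notes. RMA corrects background, quantile-normalises arrays and summarises probes, and it compresses differences of dim probe sets. The sources used here name no versions. Values ran from 5.506 to 14.159 and no probe set averaged below 7.943, so any with a lower mean were outside the comparison. Those compared were not tested for expression above background.

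Gene symbols came from the platform's probe set annotation and were brought up to date with RefSeq (GRCh38.p14, names and promoters). Of 12770 probe sets 11316 had 1 symbol, 629 several and 825 none, and the latter groups were left out. The 11316 kept covered 11282 genes, over which list values were taken.

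Group means and the replicate number (fixed block, 12 residual degrees of freedom, 16 without it) entered a limma 3.58.1 fit (lmFit, eBayes; R 4.3.3) of all 20 arrays, 2-sided, with Benjamini-Hochberg adjustment over 11316 probe sets and a threshold of 0.05. The block was set because the comparison pairs the arrays by the replicate number of the labels. Each of the 5 same-number correlations of I3P and PP was above 0.1 (median 0.374), against a median of -0.157 for the 20 different-number pairs. Of those 20, 3 were above 0.1 and the highest, 0.315, exceeded the lowest same-number value of 0.298. The number of arrays limits the precision. Named genes were the 15 largest called differences in each direction with all 5 pairs alike, all AHR targets, up to 4 called members per other list or the 1 with the smallest p, AHR and ARNT. The comparison, the 22 gene lists and the tests were chosen with earlier results of these data known. The fit was run on data simulated from the same blocked model with independent errors, which checks the code and not the choice of the block. Alternatives covered the block, arrays used, scaling, filters, adjustment and leaving out arrays. Plots used matplotlib 3.10.9 (Python 3.11.15).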

Additional observations from a re-analysis of the deposited data

Results flagged for a closer look

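Among the 62 named genes, an array stood apart from the other 4 of its group in 19 of 124 groups of 5, by Dixon's gap against the whole range. In independent groups about 1 in 20, or 6.2, would be flagged. These groups share the same 10 arrays, same-number arrays deviated together and many genes were chosen by their values. The figure of 6.2 is therefore no valid expectation here, and the share over all probe sets was not examined. Of the 19, 12 were arrays of replicate 3, 5 of replicate 5 and 2 of replicate 4.

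In replicate 3 several genes stood apart under both compounds. THBS1 was at 8.72 with I3P, where the other arrays lay at 10.01 to 10.21, and at 7.65 with PP (others 8.75 to 8.95). The sialyltransferase ST8SIA5 was at 7.7 with I3P (others 9.09 to 9.44) and 7.2 with PP (others 8.33 to 8.63), and MEST at 8.34 with I3P (others 9.4 to 9.74) and 8.79 with PP (others 9.96 to 10.2). PLAT was high instead, at 9.6 with I3P (others 8.48 to 8.76) and 9.05 with PP (others 8.19 to 8.42). By the same measure replicate 3 stood apart under 1 compound in STC2 with I3P (10.54, others 11.17 to 11.35), the lineage marker ANXA1 with I3P (12.81, others 13.0 to 13.07), AHRR with I3P (9.55, others 9.22 to 9.31) and CPA4 with PP (8.99, others 9.96 to 10.17). In AHRR with PP (9.35) and CPA4 with I3P (8.5) replicate 3 was also the farthest array, in the same direction, without passing that measure.

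In replicate 5 EREG was low with I3P (11.9, others 12.31 to 12.47) and with PP (11.36, others 11.85 to 12.02). NQO1 was low with PP (10.95, others 11.24 to 11.34), TBR1 was high with PP (9.84, others 9.46 to 9.57) and IGFBP4 was high with I3P (9.51, others 8.97 to 9.04). In replicate 4 NFE2L2 was low with I3P (10.26, others 10.47 to 10.55) and the epithelial marker CDH1 was low with PP (8.49, others 8.96 to 9.07).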

How the results depend on the processing

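The replicate block decided most calls. With no replicate block 9 genes were higher and 1 lower, and with the number as a random block (correlation 0.401) 52 were higher and 20 lower. The fit to the 10 arrays of I3P and PP called 20 and 3 with the block and 5 and 1 without it. Adjustment over the 3 pairs of compounds gave 48 and 16, and a test against a difference of 1.1-fold gave 19 and 4. Leaving out 1 array gave 41 to 78 higher and 12 to 28 lower genes, and leaving out all arrays of 1 number gave 26 to 42 and 9 to 17. Cyclic loess, equal array medians, level filters, 1 probe set per gene, all probe sets, a variance trend and array weights gave 60 to 80 higher and 25 to 38 lower. None of the 102 calls changed direction under any of the 39 settings. Settings that changed only the block, filters, test or adjustment left the difference itself unchanged, so they could not turn a sign. Of the 102 genes, 44 were called whichever single array was left out and 26 whichever number was left out. Signs turned for 3 named genes near 0 that were not called. SLC7A5 ran from -0.06 to 0.12 when arrays were left out. It reached 0.02 with cyclic loess, 0.05 with array weights, 0.08 without I3P replicate 5 or PP replicate 5 and 0.12 without replicate 5. CYP1A2 ran from -0.13 to 0.09 when arrays were left out and reached 0.01 with array weights, 0.09 without I3P replicate 4, 0.02 without PP replicate 5 and 0.03 without replicate 4. ARNT ran from -0.09 to 0.04 when arrays were left out and reached 0.03 without PP replicate 2 and 0.04 without replicate 2. The causes were not tested. The blocked error does not hold the variation from number to number, and no probe set averaged below 7.943.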

Other observations

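Further genes past the threshold with the block, chosen after their values were seen, did not belong to the lists. SLC7A8, a light subunit of amino acid exchangers, was higher with I3P by 0.58 (SE 0.128, adjusted p = 0.0407, and 0.999 without the block). SLC7A8 was called in 6 of the 20 fits with 1 array left out. LACC1, an enzyme of purine nucleoside metabolism in macrophages, was higher by 0.55 (SE 0.0746, adjusted p = 0.000887, and 0.014 without it), and SNX9, a sorting nexin of endocytosis, by 0.35 (SE 0.0505, adjusted p = 0.00172, and 0.029 without it). The collagen receptor subunit ITGA11 was higher by 0.46 (adjusted p = 0.00392) and the actin regulators SSH1 and CDC42EP2 by 0.53 (0.0114) and 0.46 (0.00298). GREM1, a secreted antagonist of bone morphogenetic proteins, was higher by 0.37 (adjusted p = 0.00803) and GDF5, a member of that ligand family, by 0.32 (0.00989). The adenosine receptor ADORA2B was higher by 0.39 (adjusted p = 0.00429). Every I3P array lay above every PP array for LACC1, SNX9, ITGA11, SSH1, CDC42EP2, GREM1 and ADORA2B, and not for SLC7A8 and GDF5.

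Enzymes of metabolism were among the smaller differences. Pyruvate carboxylase, PC, was higher with I3P than with PP by 0.28 (adjusted p = 0.0358), with PP 0.24 below DMSO and I3P 0.04 above it. The mitochondrial arginase ARG2 was higher by 0.30 (adjusted p = 0.0291), with PP 0.22 below DMSO and I3P 0.08 above. Both were called for I3P against PP and for neither compound against DMSO. SPP1, osteopontin, differed by -0.28 (adjusted p = 0.0134) and FARSB, a subunit of the phenylalanine tRNA synthetase, by -0.29 (adjusted p = 0.0182).

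The 3 largest differences that did not pass each had 1 I3P array far from the rest. PREX2 differed by 1.27 (SE 0.658, adjusted p = 0.444), with I3P replicate 3 at 13.89 and the other I3P arrays at 8.0 to 9.39. A probe set of ARF3 differed by -1.24 (SE 0.393, adjusted p = 0.178) and was below PP in all 5 pairs. Its I3P replicate 5 was at 6.13 and the other I3P arrays at 9.3 to 9.76. It was not the brightest probe set of ARF3, since no gene's brightest probe set differed by less than -0.82. CARMN differed by 0.96 (SE 0.414, adjusted p = 0.354), with I3P replicate 3 at 13.92 and the other I3P arrays at 10.27 to 10.65.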
